A study of Homo sapiens with 15 samples.

Results

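The genes described here encode enzymes that add or remove methyl groups on histone lysines, and the proteins that move or restructure nucleosomes, in MM.1S, an established human multiple myeloma cell line. They were chosen by name, as a list of 60 gene symbols, and not by their expression. Identifiers for 59 of them were present among the 47459 gene rows of the expression table, and KMT2B was not analysed here. The 59 genes were placed in 10 role groups, which held 5 methyltransferases of histone H3 lysine 4 (H3K4), 6 of H3K36, 3 of H3K9, 4 subunits of Polycomb repressive complex 2 (PRC2), 5 other lysine methyltransferases and SET domain proteins, 12 lysine demethylases, 14 SWI/SNF subunits, 3 other bromodomain proteins, 5 CHD and INO80 remodelers and 2 TET enzymes. RNA was collected after 6 h with DMSO, the solvent control, or with a compound at 100 nM. A-485 inhibits the acetyltransferase activity of CBP and p300, which are paralogous coactivators that acetylate histones. GNE-781 blocks their bromodomain, which binds acetylated lysine. The treatment called the combination below gave A-485 and GNE-781 together, 100 nM of each. dCBP-1 is a bifunctional degrader that joins a bromodomain ligand to a ligand of the ubiquitin ligase cereblon. Each of the 5 groups had 3 libraries, and all 15 came from the same line, for which the labels name no genetic change, so the results concern 1 line at 1 time and 1 dose. The labels do not say that the 3 libraries of a group were separate cultures, so the p-values cover no more than the variation among these libraries.

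Methylation of histone lysines is written by SET domain enzymes and by DOT1L, and erased by the flavin-dependent KDM1 and the Jumonji-type demethylases. Methylated H3K4 marks promoters and enhancers, methylated H3K36 and H3K79 mark transcribed gene bodies, and methylated H3K9 and H3K27 mark silent chromatin. SWI/SNF, CHD and INO80 proteins use ATP to slide, evict or exchange nucleosomes, and TET enzymes oxidize methylcytosine in DNA. CBP and p300 acetylate H3K27, the residue that PRC2 methylates, and their loss or inhibition is known to lower transcription from enhancers in myeloma cells.

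The libraries held 13.10 to 18.29 M reads. Values are normalized read counts, which are the reads of a gene divided by 1 factor per library. The kit sequences the 3′ ends of mRNA, so reads do not scale with transcript length. Levels of different genes are compared only roughly, since reads of overlapping genes may be included. All 10 plasma cell and myeloma markers examined had reads in all 15 libraries, and 6 of the 26 markers of T cells, B cells, monocytes and macrophages, erythroid cells, epithelium and fibroblasts (CD3D, KRT5, ALAS2, CSF1R, FCGR3A and MARCO) had 0 reads in each. TRAT1, a T cell marker, and HBB, a globin, were read in all 15 libraries, at 34.4 to 176 and 26.7 to 150. No other of the 26 was above 16.6 in any library, CD14 having that value. The summed T cell markers ran from 130 to 201 in the DMSO libraries and from 46.2 to 62.4 with dCBP-1, and the summed erythroid markers from 75.9 to 155 and from 26.7 to 37.9. The part of these in the results was not tested. The summed level of the 10 plasma cell markers ran from 64777 to 69930 in the DMSO libraries, from 25999 to 53832 with the inhibitors and from 11479 to 12748 with dCBP-1. In bulk RNA, fewer cells of a type and less RNA per cell cannot be told apart. DMSO libraries 1 and 2 stood apart from the rest, with 23.1% and 19.7% of reads from mitochondrial genes against 14.3% to 17.0% in the other 13. At a depth of 13.1 M reads, 16274 and 17376 genes would be detected in them, against 18735 to 20547 in the others. The third DMSO library had a higher value than both of them for 48 of the 59 genes, a lower one for 3 and one in between for 8. Comparisons with DMSO are therefore given below with all DMSO libraries. Results without DMSO libraries 1 and 2 are given for some genes and treatments, and as counts for every treatment further on.

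All 59 genes passed the filter on low values, a value of at least 5 in at least 3 libraries, and none had fewer than 23 reads in any library. Their mean levels were high for this cell line. Of the 59, 54 lay at or above the median level of the 16104 genes tested, and the median of their means over the 15 libraries was 1188. SUZ12, a core PRC2 subunit, had the highest mean level, 5468, and KDM6B, an H3K27 demethylase, the lowest, 65.4.

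Promoters of 51 of the 59 genes were matched by symbol in RefSeq (GRCh38.p14), and SETD1B, NSD3, DOT1L, SMARCC1, SMARCC2, ARID2, ATAD2 and CHD7 had no entry. The 250 bases before the annotated start were searched on both strands for the GC box GGGCGG, the E-box CACGTG, the ETS core CCGGAAG, the cAMP response element TGACGTCA and the TATA element TATAAA. Matches of 1 motif may overlap each other. The GC box was present in 38 of 51 promoters (74.5%), against 42.6% of all 35093 RefSeq promoters of the same length. The first promoter listed was used for each of the 51 genes. The 35093 held every distinct promoter of each gene, whatever its expression, so the sets are not matched. The E-box was present in 9 (17.6%, against 6.34%) and the ETS core in 6 (11.8%, against 8.52%), while TGACGTCA (0 of 51, against 1.65%) and TATAAA (0 of 51, against 10.7%) were in none. The promoters had a median of 26 CpG sites and 68.8% GC, against 11 and 58.0% over all promoters. The sequences of 4 genes, chosen after their values were seen, are shown as examples of genes that had the largest called change of their role groups with dCBP-1 in either direction, as described below. ARID1A (chr1:26695765-26696014, plus strand) and TET3 (chr2:73984660-73984909, plus strand) fell, and KDM5B (chr1:202808422-202808671, minus strand) and EZH2 (chr7:148884292-148884541, minus strand) rose. Each is written 5′ to 3′ on the strand of the gene, with GC boxes and E-boxes in capitals.
ARID1A: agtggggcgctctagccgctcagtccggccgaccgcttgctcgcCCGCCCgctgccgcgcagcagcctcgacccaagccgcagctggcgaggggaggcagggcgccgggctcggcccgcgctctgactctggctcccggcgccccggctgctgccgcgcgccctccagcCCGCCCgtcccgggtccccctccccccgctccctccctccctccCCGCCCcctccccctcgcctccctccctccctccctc
TET3: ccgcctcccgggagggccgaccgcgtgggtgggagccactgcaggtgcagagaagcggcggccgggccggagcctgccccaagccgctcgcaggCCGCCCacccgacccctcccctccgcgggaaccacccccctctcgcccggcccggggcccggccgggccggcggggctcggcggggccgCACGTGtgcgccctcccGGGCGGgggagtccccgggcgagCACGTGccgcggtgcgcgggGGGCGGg
KDM5B: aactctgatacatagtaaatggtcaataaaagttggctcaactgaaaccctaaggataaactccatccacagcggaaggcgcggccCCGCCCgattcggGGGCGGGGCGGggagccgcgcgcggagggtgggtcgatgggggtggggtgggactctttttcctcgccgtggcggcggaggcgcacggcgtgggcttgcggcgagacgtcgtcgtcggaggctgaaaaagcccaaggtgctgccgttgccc
EZH2: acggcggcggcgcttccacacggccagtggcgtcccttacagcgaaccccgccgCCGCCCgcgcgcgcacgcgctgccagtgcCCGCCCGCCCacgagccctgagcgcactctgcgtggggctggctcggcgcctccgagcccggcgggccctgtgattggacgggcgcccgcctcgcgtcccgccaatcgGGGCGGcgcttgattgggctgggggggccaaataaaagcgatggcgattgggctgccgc
ARID1A, TET3 and KDM5B hold 3 GC boxes each and EZH2 holds 4, and TET3 also holds 2 E-boxes. Other genes that rose hold from 0 motif matches, as in the window of BRD8, to 5, in that of KDM4B. SMYD3 has 2 and BRD7 has 3. Among promoters matched, the GC box was in 6 of 8 genes that fell with dCBP-1 (75.0%), in 10 of 15 that rose (66.7%) and in 22 of 28 that were not called (78.6%). A match describes the letters only.

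With dCBP-1, 29 of the 59 genes differed from DMSO, 18 higher and 11 lower. A gene is said to have risen or fallen, or to be called, when its adjusted p was below 0.05 in limma-trend, a linear model fitted to log2(value + 1) of all 15 libraries with p-values adjusted by Benjamini-Hochberg over all 16104 genes tested. Of all genes tested, 37.8% were called in that comparison (19.3% higher and 18.5% lower), and of those at or above the median level 48.5%, so the share of the 59, 49.2%, was near that of other well expressed genes. The combination changed 21 of the genes, 15 higher and 6 lower, where 21% of all genes passed (11.4% higher, 9.6% lower), as did 29.1% of those at or above the median level. GNE-781 changed 14, 9 higher and 5 lower, where 16.6% of all genes passed (7.82% higher, 8.81% lower), as did 23.5% of those at or above the median level. A-485 changed 1, SMYD3, where 2.14% of all genes passed (0.348% higher, 1.79% lower), as did 3.34% of those at or above the median level. These 4 comparisons share the DMSO libraries. The median log2 fold change of the 59 genes was 0.03 with A-485, 0.10 with GNE-781, 0.11 with the combination and 0.00 with dCBP-1, beside -0.03, 0.07, 0.09 and 0.07 for all genes tested.

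No gene was called in opposite directions by different treatments. Of the 59 genes, 28 were called in none of the 4 comparisons with DMSO. SMYD3 was called higher in all 4, 8 genes were higher with GNE-781, the combination and dCBP-1, and 4 were lower with those 3 treatments. Calls shared by the combination and dCBP-1 but not by GNE-781 numbered 5 rises and 2 falls. dCBP-1 alone gave 4 higher and 5 lower calls, KMT2A was called higher with the combination alone, and SMARCD2 lower with GNE-781 alone. A call in one comparison and none in another does not show that the treatments differ, and the direct tests are given further on. The groups did not overlap for 35 genes with dCBP-1 (21 higher and 14 lower, where 44.3% of all genes did not overlap), 24 with the combination (30.4%), 26 with GNE-781 (31.6%) and 9 with A-485 (15.1%). With 3 libraries against 3, an exact permutation test of a single gene cannot give a p below 0.10, so the calls rest on the model.

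**Figure D1:**
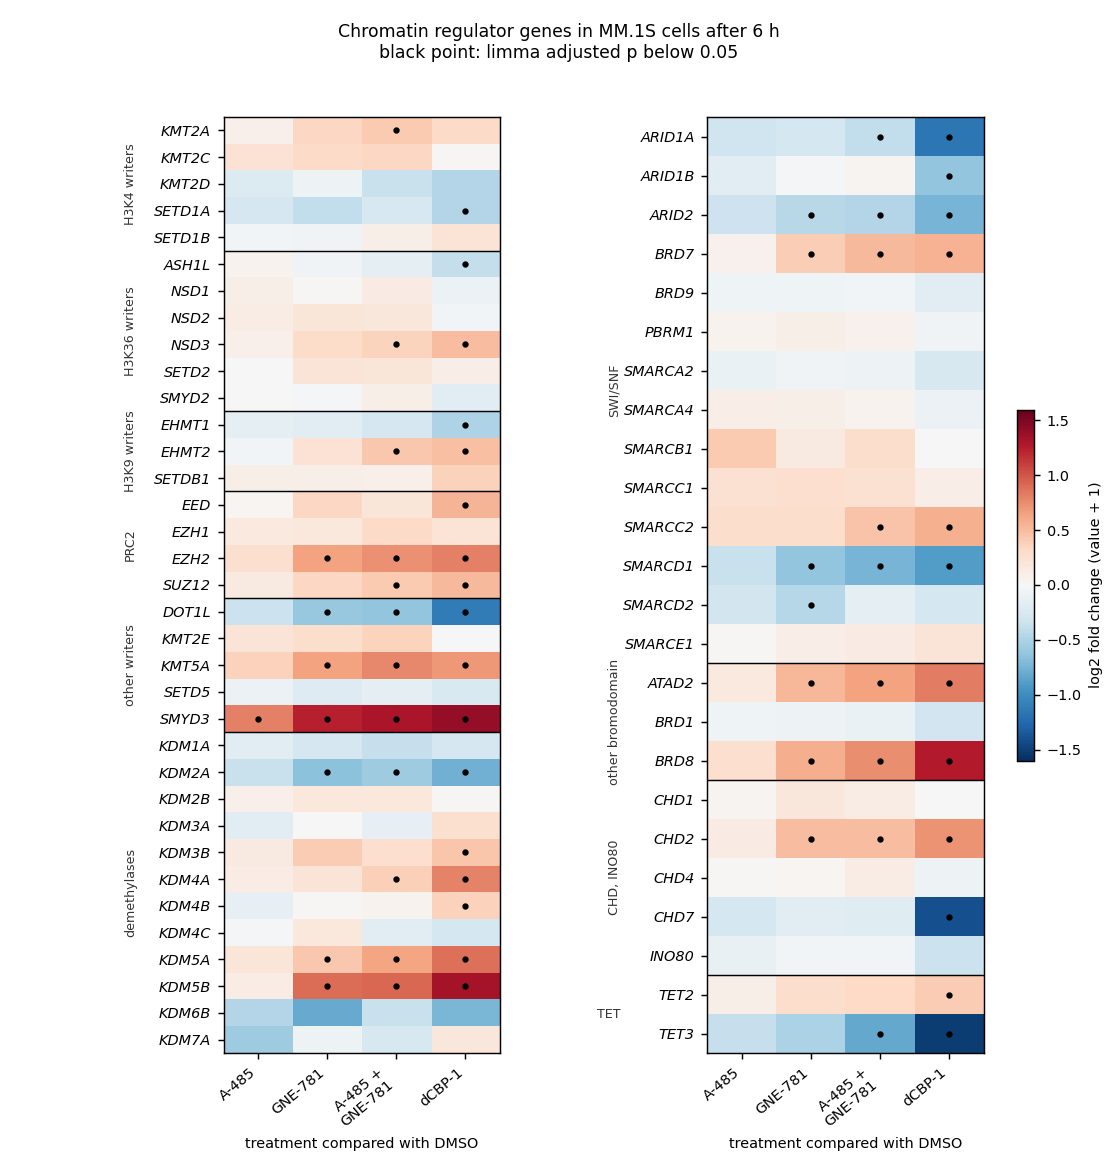
Log2 fold change of each of the 59 genes (rows, grouped by role) for each treatment compared with DMSO (columns), in colour on the log2(value + 1) scale. A black point marks a limma adjusted p below 0.05, and the columns hold 1, 14, 21 and 29 points from A-485 to dCBP-1.

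Of the 5 H3K4 methyltransferases, 1 was called with dCBP-1, SETD1A, the catalytic subunit of a COMPASS complex, while 3 had an unadjusted p below 0.05. SETD1A had values of 433, 516 and 623 in the DMSO libraries, 486, 464 and 351 with A-485, 403, 390 and 390 with GNE-781, 436, 394 and 472 with the combination, and 397, 408 and 321 with dCBP-1. Its dCBP-1 libraries all lay below the DMSO libraries, but by a small gap, and the log2 fold change was -0.47 (limma adjusted p = 0.022, SE 0.16). That call was lost without DMSO library 3 or without dCBP-1 library 3. In addition, AC135048.4 on the opposite strand overlaps the end of SETD1A, and since no source used here states that counting used strand, reads from it may be in these values. KMT2A, the mixed lineage leukemia H3K4 methyltransferase, rose with the combination by 0.42 (SE 0.13, limma adjusted p = 0.018), a call lost without DMSO library 1, DMSO library 2 or combination library 2. AP001267.3 overlaps the end of KMT2A on the opposite strand. KMT2C, KMT2D and SETD1B were called in no comparison with DMSO when all libraries were used, with KMT2D at -0.47 with dCBP-1 (limma adjusted p = 0.083).

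Of the 6 H3K36 methyltransferases, NSD3 rose and ASH1L fell with dCBP-1, and SETD2, NSD1, NSD2 and SMYD2 were not called with any treatment. NSD3, which dimethylates H3K36, had values of 2207, 2043 and 2337 in the DMSO libraries, 2515, 2362 and 2112 with A-485, 2855, 2754 and 2455 with GNE-781, 2547, 3023 and 2888 with the combination, and 2917, 2730 and 3654 with dCBP-1. Every combination and dCBP-1 library was above every DMSO library, with log2 fold changes of 0.36 (limma adjusted p = 0.048) and 0.49 (limma adjusted p = 0.0035). ASH1L, another H3K36 dimethyltransferase, had values of 3501, 3282 and 4396 in the DMSO libraries, 4351, 3756 and 3496 with A-485, 3575, 3607 and 3473 with GNE-781, 2940, 3438 and 3570 with the combination, and 3025, 2916 and 2572 with dCBP-1. The dCBP-1 libraries lay below all others except 1 of the combination, and the log2 fold change against DMSO was -0.38 (SE 0.13, limma adjusted p = 0.021). With dCBP-1, ASH1L lost its call without DMSO library 3 or dCBP-1 library 3, and NSD3 without DMSO libraries 1 and 2 together, where its adjusted p was 0.11. The NSD3 call with the combination was lost without DMSO library 1 or 2 or without combination library 2 or 3. SETD2, which trimethylates H3K36, changed by 0.11 with dCBP-1 (95% interval -0.15 to 0.37).

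Among the H3K9 methyltransferases, the partner enzymes EHMT1 (GLP) and EHMT2 (G9a), which form a heterodimer that dimethylates H3K9, were called in opposite directions with dCBP-1. EHMT1 had values of 619, 769 and 717 in the DMSO libraries, 655, 625 and 623 with A-485, 580, 613 and 678 with GNE-781, 513, 566 and 666 with the combination, and 548, 568 and 392 with dCBP-1. EHMT2 had values of 342, 386 and 424, of 417, 319 and 380, of 445, 501 and 402, of 482, 533 and 534, and of 524, 511 and 575 in the same order of groups. The dCBP-1 libraries lay below the DMSO libraries for EHMT1 and above them for EHMT2, at log2 fold changes of -0.49 and 0.49 (SE 0.15 and limma adjusted p = 0.011 for each). Within each library, the ratio of EHMT2 to EHMT1 was 0.548 ± 0.044 in DMSO (SD, n = 3), 0.586 ± 0.067 with A-485, 0.725 ± 0.118 with GNE-781, 0.894 ± 0.080 with the combination and 1.11 ± 0.31 with dCBP-1. EHMT2 lost its call without DMSO library 1, EHMT1 lost its call without DMSO library 2 or dCBP-1 library 3, and both were lost without DMSO libraries 1 and 2 (adjusted p = 0.235 for EHMT2 and 0.0655 for EHMT1). EHMT2-AS1 overlaps the end of EHMT2 on the opposite strand. SETDB1, which trimethylates H3K9, was 0.37 higher with dCBP-1 (95% interval 0.06 to 0.67) and was not called (limma adjusted p = 0.057).

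PRC2, which methylates H3K27, had 3 of its 4 genes called higher with dCBP-1 and none lower, where 19.3% of all genes tested were higher and 18.5% lower. EZH2 (ENSG00000106462), its main catalytic subunit in dividing cells, had values of 2215, 2492 and 3207 in the DMSO libraries, 3587, 3077 and 2732 with A-485, 4136, 4333 and 3749 with GNE-781, 3596, 4943 and 4539 with the combination, and 4485, 4168 and 5095 with dCBP-1. All libraries with GNE-781, the combination or dCBP-1 were above all DMSO libraries, while A-485 overlapped DMSO. The log2 fold changes were 0.64 with GNE-781 (limma adjusted p = 0.0029), 0.73 with the combination (limma adjusted p = 6.4e-04) and 0.81 with dCBP-1 (SE 0.15, limma adjusted p = 5.8e-05). Against DMSO library 3 alone, EZH2 was 0.34 higher with GNE-781 and 0.43 higher with the combination, and both calls were lost. EED, which binds trimethylated H3K27, had values of 817, 845 and 864 in the DMSO libraries, 1047, 883 and 683 with A-485, 1037, 998 and 1160 with GNE-781, 935, 1019 and 933 with the combination, and 1206, 1306 and 1161 with dCBP-1. SUZ12, the scaffold subunit, had values of 4179, 4153 and 5014 in the DMSO libraries, 5840, 4566 and 4458 with A-485, 5034, 6192 and 5582 with GNE-781, 5081, 5973 and 6885 with the combination, and 6871, 6317 and 5866 with dCBP-1. With dCBP-1 both genes were above DMSO in every library, by 0.54 for EED (SE 0.14, limma adjusted p = 0.0027) and 0.52 for SUZ12 (SE 0.14, limma adjusted p = 0.0041). EZH1, the paralog of EZH2, was 0.22 higher and was not called (95% interval -0.06 to 0.50). Against DMSO library 3 alone EZH2 kept its call with dCBP-1 (0.51, limma adjusted p = 0.0488), whereas EED (0.50, adjusted p = 0.0625) and SUZ12 (0.34, adjusted p = 0.207) did not.

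Of the 5 other methyltransferase genes, SMYD3 and KMT5A rose and DOT1L fell with GNE-781, with the combination and with dCBP-1. SMYD3 (ENSG00000185420), a SET and MYND domain methyltransferase, had values of 139, 69.6 and 155 in the DMSO libraries, 223, 215 and 172 with A-485, 282, 286 and 250 with GNE-781, 252, 334 and 275 with the combination, and 285, 289 and 344 with dCBP-1. Every treated library was above every DMSO library, and DMSO library 2 was the lowest by far. The log2 fold changes were 0.81 with A-485 (SE 0.22, limma adjusted p = 0.043), 1.24 with GNE-781 (SE 0.22, limma adjusted p = 2.3e-04), 1.31 with the combination (SE 0.22, limma adjusted p = 8.5e-05) and 1.40 with dCBP-1 (SE 0.22, limma adjusted p = 7.0e-06). The A-485 call was lost without DMSO library 2 and without any 1 of the A-485 libraries. Against DMSO library 3 alone SMYD3 was 0.97 higher with dCBP-1 (limma adjusted p = 0.0028).

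DOT1L (ENSG00000104885), the H3K79 methyltransferase, had values of 1275, 1282 and 1152 in the DMSO libraries, 1011, 1025 and 901 with A-485, 755, 834 and 845 with GNE-781, 722, 823 and 856 with the combination, and 655, 578 and 480 with dCBP-1. Its libraries fell into steps: DMSO was above A-485, A-485 above GNE-781 and the combination, which overlapped each other, and dCBP-1 below all. The log2 fold changes against DMSO were -0.34 with A-485, which was not called (limma adjusted p = 0.21), -0.61 with GNE-781 (limma adjusted p = 0.0024), -0.63 with the combination (limma adjusted p = 0.0013) and -1.12 with dCBP-1 (SE 0.14, limma adjusted p = 1.0e-07). Against DMSO library 3 alone, DOT1L stood at -0.51 with GNE-781 and -0.53 with the combination, and both calls were lost. KMT5A, which monomethylates H4K20, had values of 355, 335 and 505 in the DMSO libraries, 563, 491 and 474 with A-485, 613, 656 and 565 with GNE-781, 561, 745 and 713 with the combination, and 617, 636 and 653 with dCBP-1. DMSO library 3 stood well above the other DMSO libraries, yet below every library with GNE-781, the combination or dCBP-1. KMT5A rose by 0.70 with dCBP-1 (SE 0.16, limma adjusted p = 7.1e-04), and by 0.33 (limma adjusted p = 0.228, not called) against DMSO library 3 alone. KMT2E and SETD5, SET domain proteins of the trithorax type, were called in no comparison with DMSO.

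**Figure D2:**
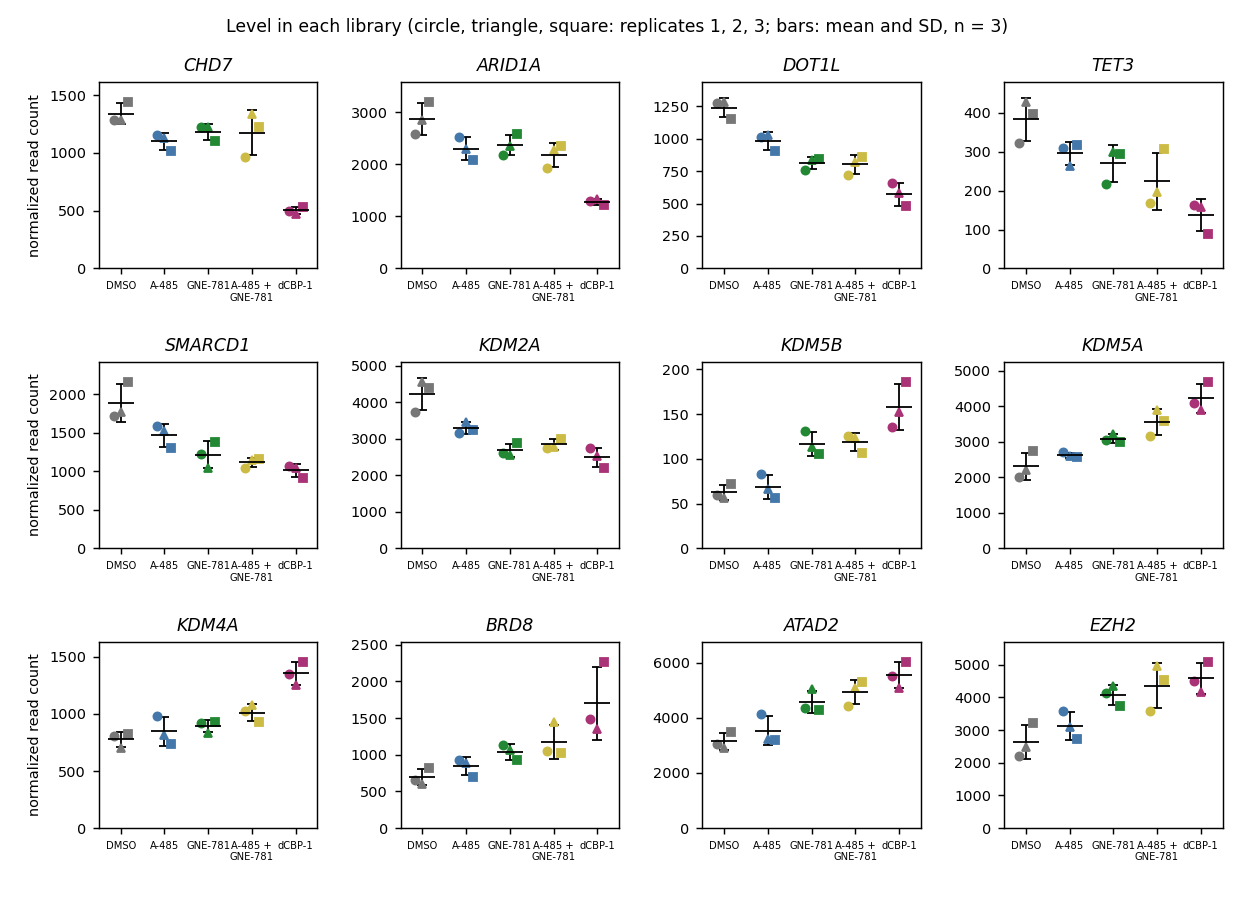
Normalized read count (vertical axis, from 0) in each of the 15 libraries for 12 of the genes; points are libraries, bars are the mean and SD of 3. The upper row and the first 2 panels of the second row are genes that fell with dCBP-1, and the other 6 are genes that rose, with no dCBP-1 library inside the DMSO range in any panel.

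Of the 12 lysine demethylases, 5 rose and 1 fell with dCBP-1, where 19.3% of all genes tested rose and 18.5% fell. KDM5B (ENSG00000117139), an H3K4 demethylase, had values of 59.6, 55.9 and 71.6 in the DMSO libraries, 83.2, 66.1 and 56.1 with A-485, 131, 113 and 105 with GNE-781, 126, 123 and 107 with the combination, and 136, 153 and 186 with dCBP-1. A-485 overlapped DMSO, and each library of the other treatments was above all of these 6. KDM5B rose by 0.89 with GNE-781 (limma adjusted p = 0.0065), 0.92 with the combination (limma adjusted p = 0.0038) and 1.33 with dCBP-1 (SE 0.23, limma adjusted p = 2.5e-05), a 2.51-fold change. Against DMSO library 3 alone, KDM5B was 0.69 higher with GNE-781 and 0.72 higher with the combination, and both calls were lost. KDM5A (ENSG00000073614), its paralog with the same substrate, had values of 1997, 2203 and 2740 in the DMSO libraries, 2703, 2615 and 2560 with A-485, 3067, 3226 and 2985 with GNE-781, 3177, 3899 and 3592 with the combination, and 4092, 3890 and 4696 with dCBP-1. Its dCBP-1 libraries were above those of DMSO, A-485 and GNE-781, and overlapped the combination by 1 library. KDM5A rose by 0.43 with GNE-781 (limma adjusted p = 0.022), 0.63 with the combination (limma adjusted p = 8.5e-04) and 0.88 with dCBP-1 (SE 0.13, limma adjusted p = 3.2e-06). The GNE-781 call was lost without DMSO library 1 or 2 or GNE-781 library 1 or 2, and the difference was 0.17 against DMSO library 3 alone.

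KDM4A (ENSG00000066135), which demethylates H3K9 and H3K36, had values of 803, 706 and 827 in the DMSO libraries, 987, 817 and 739 with A-485, 923, 834 and 931 with GNE-781, 1030, 1075 and 930 with the combination, and 1351, 1254 and 1460 with dCBP-1. The dCBP-1 libraries were above all 12 others, and the log2 fold change against DMSO was 0.80 (SE 0.13, limma adjusted p = 2.0e-05). KDM3B, an H3K9 demethylase, and KDM4B, a paralog of KDM4A, rose by 0.45 (limma adjusted p = 0.019) and 0.37 (limma adjusted p = 0.030), and both calls were lost without DMSO library 2, that of KDM3B also without DMSO library 1 or dCBP-1 library 3, and that of KDM4B also without dCBP-1 library 1 or 2. KDM2A, an H3K36 demethylase with a CpG-binding domain, is named although it fell outside the rule for named genes, and was chosen after its values were seen. KDM2A (ENSG00000173120) had values of 3723, 4561 and 4377 in the DMSO libraries, 3146, 3462 and 3248 with A-485, 2607, 2559 and 2875 with GNE-781, 2748, 2777 and 3002 with the combination, and 2737, 2520 and 2201 with dCBP-1. All 12 treated libraries lay below all DMSO libraries, and the A-485 libraries lay above those of the 3 other treatments. KDM2A fell by 0.65 on the log2 scale with GNE-781 (limma adjusted p = 4.9e-04), by 0.57 with the combination (limma adjusted p = 0.0014) and by 0.76 with dCBP-1 (SE 0.12, limma adjusted p = 1.2e-05), and stood at -0.36 with A-485, which was not called (limma adjusted p = 0.13). KDM6B, the lowest of the 59 genes, had values of 69.2, 87.5 and 107 in the DMSO libraries, 71.9, 56.9 and 59.3 with A-485, 46.0, 40.4 and 62.8 with GNE-781, 61.3, 53.2 and 93.9 with the combination, and 88.5, 56.5 and 27.3 with dCBP-1. Its dCBP-1 libraries spread more widely than the difference between groups, and the log2 fold change of -0.73 (95% interval -1.40 to -0.06) was not called (limma adjusted p = 0.078). KDM1A, KDM2B, KDM3A, KDM4C and KDM7A were called in no comparison with DMSO.

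SWI/SNF genes moved both ways with dCBP-1, with 4 of 14 lower and 2 higher, beside 18.5% lower and 19.3% higher of all genes tested. ARID1A (ENSG00000117713), the large subunit that defines the BAF form of the complex, had values of 2582, 2854 and 3201 in the DMSO libraries, 2519, 2296 and 2084 with A-485, 2188, 2345 and 2576 with GNE-781, 1926, 2273 and 2347 with the combination, and 1287, 1341 and 1225 with dCBP-1. The dCBP-1 libraries lay far below the other 12, which formed a continuous range with DMSO at its upper end. ARID1A fell by 0.40 on the log2 scale with the combination (limma adjusted p = 0.024) and by 1.16 with dCBP-1 (SE 0.13, limma adjusted p = 1.7e-08), to 0.448 of DMSO. The combination call was lost without DMSO library 2 or 3 or without combination library 1 or 2. ARID1B, its paralog and alternative BAF subunit, had values of 357, 310 and 464 in the DMSO libraries, 341, 369 and 277 with A-485, 352, 397 and 349 with GNE-781, 303, 433 and 431 with the combination, and 216, 223 and 289 with dCBP-1. Only dCBP-1 lay below DMSO in every library, and its difference from DMSO was -0.63 on the log2 scale (limma adjusted p = 0.0070, SE 0.18). Within libraries, the ratio of ARID1A to ARID1B was 7.78 ± 1.25 in DMSO (SD, n = 3) and 5.40 ± 1.01 with dCBP-1, and no library showed ARID1B above ARID1A.

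ARID2, the subunit of the PBAF form, had values of 1568, 1646 and 1521 in the DMSO libraries, 1354, 1191 and 1207 with A-485, 1086, 1141 and 1246 with GNE-781, 1050, 1170 and 1213 with the combination, and 984, 970 and 867 with dCBP-1. Every treated library was below every DMSO library, and the dCBP-1 libraries were the lowest 3. ARID2 fell by 0.45 with GNE-781 (limma adjusted p = 0.012), by 0.47 with the combination (limma adjusted p = 0.0075) and by 0.75 with dCBP-1 (SE 0.12, limma adjusted p = 1.7e-05). Against DMSO library 3 alone, ARID2 stood at -0.40 with GNE-781 and -0.41 with the combination, and both calls were lost. Its GNE-781 call was also lost without DMSO library 2 or GNE-781 library 1. SMARCD1 (ENSG00000066117), an accessory core subunit also called BAF60A, had values of 1717, 1770 and 2163 in the DMSO libraries, 1587, 1519 and 1302 with A-485, 1218, 1039 and 1386 with GNE-781, 1048, 1146 and 1154 with the combination, and 1070, 1041 and 919 with dCBP-1. All treated libraries were again below DMSO, with those of GNE-781, the combination and dCBP-1 overlapping each other. SMARCD1 fell by 0.63 with GNE-781 (limma adjusted p = 0.0016), by 0.75 with the combination (limma adjusted p = 2.2e-04) and by 0.89 with dCBP-1 (SE 0.14, limma adjusted p = 4.8e-06).

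BRD7 and SMARCC2 were the SWI/SNF genes that rose with dCBP-1, by 0.56 (limma adjusted p = 0.0014) and 0.57 (limma adjusted p = 0.0017). BRD7 is a PBAF subunit with a bromodomain and SMARCC2 (BAF170) is a scaffold subunit. Both calls were lost without DMSO libraries 1 and 2, and genes on the opposite strand overlap their ends, ADCY7 for BRD7 and MYL6 for SMARCC2. The ATPases SMARCA4 (BRG1) and SMARCA2 (BRM) were not called, with log2 fold changes of -0.10 (95% interval -0.38 to 0.18) and -0.25 (95% interval -0.54 to 0.03). SMARCB1, SMARCC1, SMARCE1, PBRM1 and BRD9 were also not called in any comparison with DMSO, and SMARCD2 fell with GNE-781 alone, by 0.46 (limma adjusted p = 0.013), a call lost without DMSO library 2 or GNE-781 library 1 or 2.

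Of the 3 other bromodomain genes, BRD8 and ATAD2 rose with GNE-781, the combination and dCBP-1. BRD8 (ENSG00000112983), a subunit of the NuA4/TIP60 acetyltransferase complex, had values of 658, 607 and 821 in the DMSO libraries, 931, 889 and 701 with A-485, 1126, 1071 and 922 with GNE-781, 1050, 1441 and 1024 with the combination, and 1485, 1348 and 2271 with dCBP-1. One dCBP-1 library was much higher than the others, and all of them were above DMSO. BRD8 rose by 0.59 with GNE-781 (limma adjusted p = 0.019), 0.75 with the combination (limma adjusted p = 0.0024) and 1.26 with dCBP-1 (SE 0.17, limma adjusted p = 9.1e-07), and its GNE-781 call was lost without DMSO library 1 or 2 or GNE-781 library 1 or 2. ATAD2 (ENSG00000156802), an ATPase with a bromodomain that is linked to DNA replication, had values of 3067, 2893 and 3481 in the DMSO libraries, 4132, 3249 and 3200 with A-485, 4364, 5028 and 4295 with GNE-781, 4434, 5069 and 5293 with the combination, and 5504, 5087 and 6040 with dCBP-1. A-485 overlapped DMSO, and the libraries of the other treatments were above both. ATAD2 rose by 0.54 with GNE-781 (limma adjusted p = 0.0053), 0.65 with the combination (limma adjusted p = 7.3e-04) and 0.82 with dCBP-1 (SE 0.13, limma adjusted p = 1.2e-05). Against DMSO library 3 alone, ATAD2 was 0.39 higher with GNE-781 and 0.50 higher with the combination, and both calls were lost. BRD1, a scaffold of acetyltransferase complexes, was not called.

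Among the 5 CHD and INO80 remodelers, CHD7 fell and CHD2 rose with dCBP-1. CHD7 (ENSG00000171316), the remodeler mutated in CHARGE syndrome, had values of 1287, 1288 and 1442 in the DMSO libraries, 1154, 1126 and 1018 with A-485, 1223, 1228 and 1105 with GNE-781, 961, 1340 and 1228 with the combination, and 498, 474 and 536 with dCBP-1. The dCBP-1 libraries lay far below the other 12. Those of A-485 and GNE-781 were also below DMSO without overlap, and the combination overlapped all 3 of these groups. CHD7 fell by 1.41 on the log2 scale with dCBP-1 (SE 0.13, limma adjusted p = 9.4e-10), to 0.376 of DMSO, and was not called with A-485, GNE-781 or the combination. CHD2 had values of 955, 944 and 1288 in the DMSO libraries, 1262, 1177 and 1033 with A-485, 1697, 1362 and 1411 with GNE-781, 1349, 1828 and 1326 with the combination, and 1360, 1563 and 2407 with dCBP-1. DMSO library 3 lay above all A-485 libraries, and the rise of 0.71 with dCBP-1 (SE 0.17, limma adjusted p = 0.0015) became 0.42 against that library alone (limma adjusted p = 0.211, not called). CHD1, CHD4 (the NuRD ATPase) and INO80 were not called with all libraries.

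The TET enzymes went opposite ways with dCBP-1. TET3 (ENSG00000187605) had values of 323, 428 and 398 in the DMSO libraries, 309, 263 and 317 with A-485, 216, 300 and 294 with GNE-781, 168, 196 and 307 with the combination, and 164, 157 and 88.9 with dCBP-1. All 12 treated libraries lay below all 3 DMSO libraries, and the dCBP-1 libraries were the lowest. TET3 fell by 0.81 on the log2 scale with the combination (SE 0.22, limma adjusted p = 0.0093) and by 1.52 with dCBP-1 (SE 0.22, limma adjusted p = 2.8e-06). The combination call was lost without DMSO library 2 or combination library 1. TET2 had values of 384, 442 and 533 in the DMSO libraries, 544, 432 and 463 with A-485, 519, 646 and 484.6 with GNE-781, 511, 556 and 626 with the combination, and 639, 582 and 571 with dCBP-1. The dCBP-1 libraries were above DMSO, but TET2 rose by only 0.41 (SE 0.15, limma adjusted p = 0.036) and lost its call without any 1 of DMSO libraries 1 and 2 and the 3 dCBP-1 libraries. Within libraries, the ratio of TET2 to TET3 was 1.19 ± 0.15 in DMSO (SD, n = 3), 1.62 ± 0.15 with A-485, 2.07 ± 0.38 with GNE-781, 2.64 ± 0.53 with the combination and 4.68 ± 1.52 with dCBP-1. The lowest dCBP-1 ratio, 3.71, was above the highest of the combination, 3.04. A ratio within a library does not depend on that library's scaling factor. It shows unequal change of the pair and not which gene moved, and these pairs were chosen after the values were seen.

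**Figure D3:**
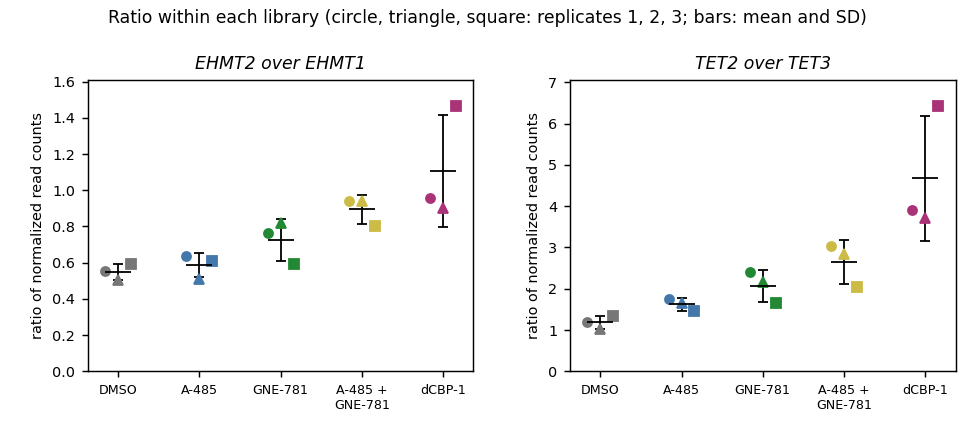
Ratio of 2 genes within each library (vertical axis, no unit) for 2 pairs in the 5 groups, EHMT2 to EHMT1 and TET2 to TET3. Points are libraries and bars the mean and SD of 3. The TET2 to TET3 ratio runs from a mean of 1.19 in DMSO to 4.68 with dCBP-1, and EHMT2 to EHMT1 from 0.548 to 1.11.

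The direct comparison of dCBP-1 with the combination asks whether the degrader and joint inhibition leave different RNA levels. Degradation itself is not measured by these values. The part of degradation, of the cereblon ligand or of the dose in any difference between the treatments was not tested. Of the 59 genes 4 were called, all lower with dCBP-1, where 6.17% of all genes tested passed (0.553% higher, 5.61% lower), as did 9.5% of those at or above the median level. CHD7 differed by -1.21 (95% interval -1.49 to -0.94, limma adjusted p = 8.2e-08), ARID1A by -0.76 (95% interval -1.02 to -0.50, limma adjusted p = 9.0e-05), ARID1B by -0.67 (95% interval -1.04 to -0.30, limma adjusted p = 0.018) and DOT1L by -0.49 (95% interval -0.77 to -0.22, limma adjusted p = 0.021). The groups did not overlap for 17 genes, 5 of them higher and 12 lower with these 4 included, where 23.1% of all genes tested did not overlap. TET3 differed by -0.71 (95% interval -1.17 to -0.25) and was not called (limma adjusted p = 0.054). The genes furthest in the other direction were BRD8, at 0.52 (95% interval 0.16 to 0.87, limma adjusted p = 0.076), KDM7A, at 0.44 (95% interval -0.08 to 0.96, limma adjusted p = 0.43), and KDM4A, at 0.42 (95% interval 0.15 to 0.69, limma adjusted p = 0.059), none of them called. Scaling by TMM gave 3 higher and 4 lower calls and median-ratio scaling 4 and 4, so the split between higher and lower calls depended on the scaling. Without combination library 3 the calls were 2, and DOT1L and ARID1B each lost their call without combination library 2 or 3 or some of the dCBP-1 libraries, whereas CHD7 and ARID1A kept theirs in all 16 alternatives run. For SMARCD1, EZH2 and SMYD3 the differences were -0.15 (95% interval -0.42 to 0.13), 0.08 (95% interval -0.22 to 0.38) and 0.10 (95% interval -0.35 to 0.54).

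**Figure D4:**
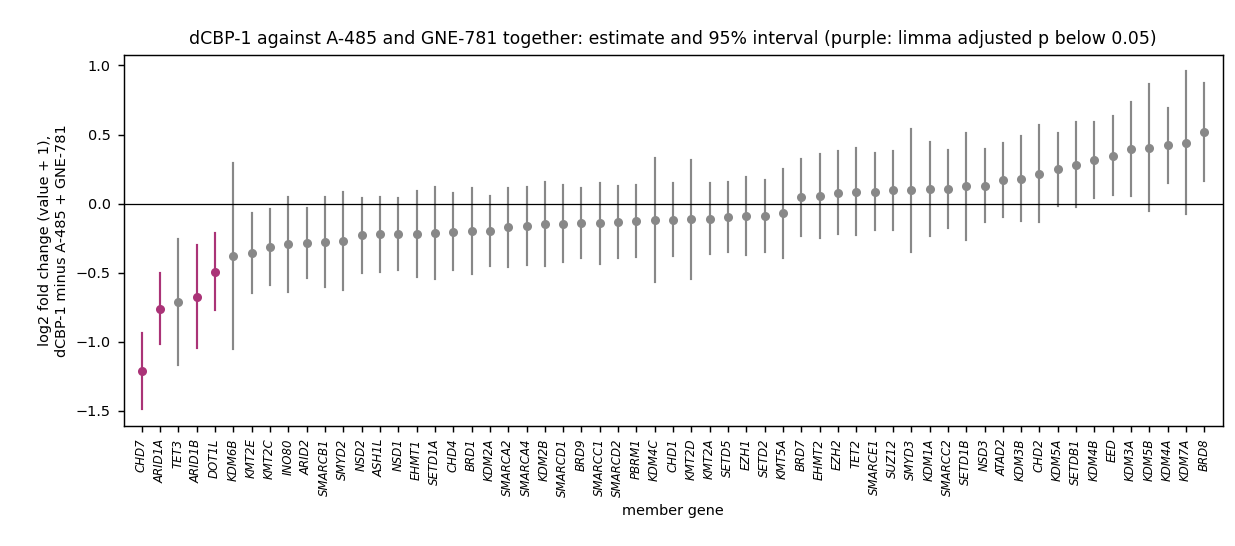
Log2 difference of dCBP-1 minus the combination for each of the 59 genes (horizontal axis, in order of the difference), with 95% intervals from limma. CHD7, ARID1A, ARID1B and DOT1L, in purple, are the 4 genes called, at -1.21 to -0.49.

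Against GNE-781 alone, which shares its bromodomain target with the binding arm of dCBP-1, dCBP-1 differed in 8 genes, where 9.31% of all genes tested passed (2.19% higher, 7.13% lower), as did 14% of those at or above the median level. The 5 lower genes were CHD7 at -1.24 (limma adjusted p = 4.5e-08), TET3 at -1.01 (limma adjusted p = 0.0022), ARID1A at -0.88 (limma adjusted p = 7.2e-06), ARID1B at -0.60 (limma adjusted p = 0.032) and DOT1L at -0.52 (limma adjusted p = 0.012). The 3 higher genes were BRD8 at 0.68 (limma adjusted p = 0.0089), KDM4A at 0.60 (limma adjusted p = 0.0027) and KDM5A at 0.45 (limma adjusted p = 0.024). The 2 groups did not overlap for any of the 8, as the values above show, but these were chosen as called genes. Among all 59 genes the groups did not overlap for 26, 11 of them higher and 15 lower, where 32% of all genes tested did not overlap. The count of called genes was 5 without GNE-781 library 2, 4 without GNE-781 library 3 and 5 without dCBP-1 library 3. CHD7, KDM4A, ARID1A and TET3 kept their call in all 16 alternatives. BRD8 lost its call without GNE-781 library 3 or dCBP-1 library 3, DOT1L without these or GNE-781 library 2, and ARID1B and KDM5A without any 1 of 5 of the 6 libraries.

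GNE-781 and A-485, which act on different domains of the same proteins, differed in 0 of the 59 genes by limma and by edgeR, where limma called 1% of all genes tested and 1.74% of those at or above the median level. At an unadjusted p below 0.05 there were 8 genes, and DESeq2 called 4, with 2 higher and 2 lower. The intervals leave room for differences: KDM5B was 0.77 higher with GNE-781 (95% interval 0.31 to 1.23, limma adjusted p = 0.10), EZH2 0.39 higher (95% interval 0.09 to 0.68, adjusted p = 0.26) and KDM2A had a log2 difference of -0.29 (95% interval -0.55 to -0.04, adjusted p = 0.32). In each of these 3 genes the libraries of the treatments did not overlap, as in 12 of the 59 genes and in 19.9% of all genes tested.

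Leaving out DMSO libraries 1 and 2 lowered the number of rises, over all genes tested as well as among the 59. Over all genes, the calls with dCBP-1 went from 3105 higher and 2987 lower to 1255 and 2547, and the median log2 fold change from 0.07 to -0.12. All-gene calls with the combination went from 3383 to 1081, with GNE-781 from 2679 to 889 and with A-485 from 345 to 13. Of the 59 genes, 21 were then called with dCBP-1, 7 higher and 14 lower. Of the 18 rises, 7 kept their call (SMYD3, KDM5B, BRD8, KDM4A, ATAD2, KDM5A and EZH2), and of the 11 falls 10 kept theirs, EHMT1 being the exception. CHD4, INO80, KMT2D and SMARCA2 were called lower only in this setting, at -0.43, -0.66, -0.80 and -0.52. With the combination 4 genes were called in place of 21, with GNE-781 3 in place of 14, and with A-485 0 in place of 1. Leaving out DMSO library 2 alone gave 12 for the combination, 8 for GNE-781 and 0 for A-485, and leaving out DMSO library 3 alone gave 27, 21 and 4. Single treated libraries also mattered: the count for the combination was 12 without its library 2, that for GNE-781 8 without its library 1 and 9 without its library 2, and that for A-485 0 without any 1 of its libraries. For dCBP-1, leaving out 1 library gave 25 to 30 calls, and 15 of its 29 calls were lost in none of the 17 alternatives (CHD7, TET3, ARID1A, DOT1L, SMARCD1, KDM2A, ARID2, ARID1B, SMYD3, KDM5B, BRD8, KDM5A, ATAD2, EZH2 and KDM4A). KDM2A, SMYD3 and SMARCD1 were the genes called with GNE-781 and with the combination in all 17. The part that the mitochondrial share and gene detection of DMSO libraries 1 and 2 had in the calls was not tested beyond leaving them out.

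**Figure D5:**
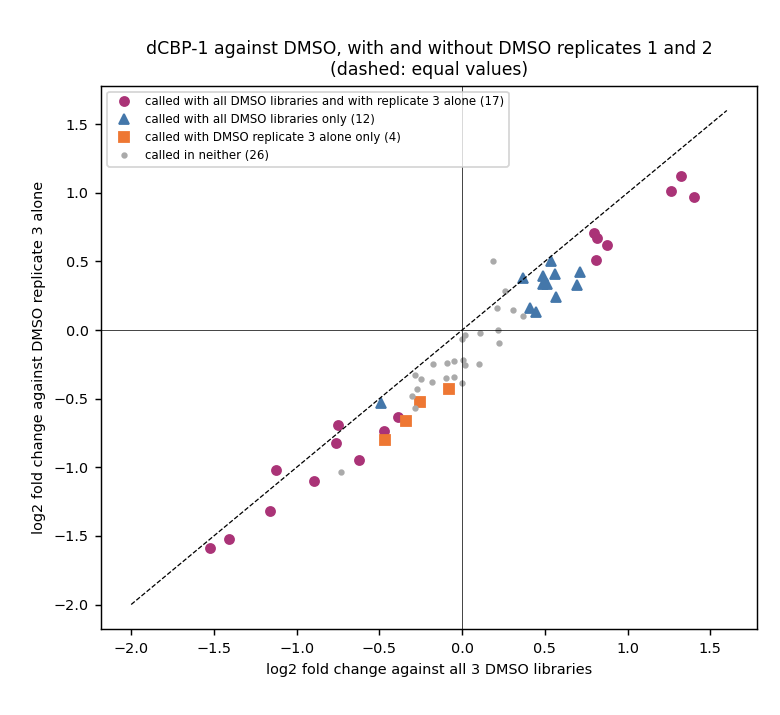
Log2 fold change of dCBP-1 for each of the 59 genes against all 3 DMSO libraries (horizontal axis) and against DMSO library 3 alone (vertical axis); the dashed line marks equal values. Most points lie below the line, 17 genes were called in both, 12 only with all DMSO libraries and 4 only with library 3.

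Other genes of the same pathways were listed by name, 133 in all. Each rise or fall given here rests on all 15 libraries. None was followed under the alternatives, such as leaving out DMSO libraries 1 and 2. Of the 126 that were tested, 48 were called with dCBP-1 (38.1%, beside 37.8% of all genes tested), 20 higher and 28 lower, with a median log2 fold change of -0.01. The combination called 26 of the 126, GNE-781 19 and A-485 3, where 21%, 16.6% and 2.14% of all genes tested were called. All 5 calls among 8 arginine methyltransferases were lower, with PRMT1, the main source of asymmetric arginine methylation, falling by 1.16 (SE 0.15, limma adjusted p = 6.1e-07) and PRMT3 falling from 126 ± 26 in DMSO to 31.7 ± 11.7 (SD, n = 3, limma adjusted p = 2.0e-06). Among 36 other ISWI, CHD, NuRD and INO80 family genes 9 rose and 9 fell, the latter including RUVBL1, an AAA ATPase of INO80, by 0.91, and MBD3, a NuRD subunit, by 1.02. Of 12 COMPASS subunits, MEN1 (menin) rose by 0.69 and WDR5 fell by 0.72, and the other 10 were not called. The PRC2 cofactors MTF2 and PHF1, which recruit PRC2 to chromatin, rose by 0.72 and 0.69, with 1 other gene of the 8 lower. Of 17 PRC1 genes, CBX7 rose by 0.90 and CBX6 fell by 1.34, and 1 further gene was lower. TET1 fell by 1.01, the only 1 of 6 DNA methylation genes called. Among 13 other demethylases 3 rose and 3 fell, RIOX2, a Jumonji-type hydroxylase, by 1.42. The other SWI/SNF subunits included DPF1, which rose by 0.96, and DPF3, which fell by 1.43, and in all 2 of 13 rose and 2 fell. Of 13 other lysine methyltransferases 2 rose, including SETD3 (0.63), and 4 fell, including SMYD5 (-0.92).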

How the data were processed

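RNA-seq was measured in 15 MM.1S libraries made, per the labels, with a kit for mRNA 3′ ends. The deposited file gives a signal for every gene and library, named normalized read counts by the authors. Per the submitters' processing notes the build was hg19. The aligner, counting tool, strand setting and normalization method are not given in the sources used here. All values were whole multiples of 1 step per library within 0.01 of a read (100%), so reads were recovered for the count-based alternatives. The labels name ERCC spike-ins, but the values hold no rows for them, so scaling to spike-ins was not run. Whether the authors' normalization used them is not given in the sources used here, so no value is read as RNA per cell. The last row held no value, and 2 combination libraries carry other compound numbers in their treatment field than in their titles, which were followed.

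log2(value + 1) of genes with a value of at least 5 in at least 3 libraries (16104 genes) was fitted with limma-trend (limma 3.58.1, R 4.3.3) in 1 model of 5 group means, two-sided, with Benjamini-Hochberg adjustment in each of 7 comparisons and calls at an adjusted p below 0.05. Errors are SD for means and SE for log2 fold changes. The script was tested on simulated data. Alternatives were TMM and median-ratio scaling, other pseudocounts and filters, the replicate number as a block, only the groups compared, each library left out, DMSO libraries 1 and 2 left out, edgeR 4.0.16 and DESeq2 1.42.0 on recovered reads.

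Values in every library were given for up to 3 genes per role group with the largest called change with dCBP-1, up to 4 called against the combination, those called with A-485, and the genes of highest and lowest mean. The genes, lists and tests were chosen with earlier results of these data known. Gene ends that overlap another gene within the last 500 bases of transcript were found in GENCODE 29 (13 of 59 genes, 10 on the opposite strand).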

Additional observations from a re-analysis of the deposited data

How the results depend on the processing

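No call on the 59 genes changed sign under any alternative: of 1297 values recomputed for called genes, 1121 stayed past the threshold and 176 did not. Counts of called genes that moved by over 1.5 times were as follows. With A-485 (1 call) TMM and median-ratio scaling gave 2 each, pseudocount 0.25, no filter, the replicate block, only the groups compared and no DMSO libraries 1 and 2 gave 0, edgeR 3 and DESeq2 6. With GNE-781 (14) DESeq2 gave 22 and leaving out DMSO libraries 1 and 2 gave 3. With the combination (21) only the groups compared gave 13 and leaving out DMSO libraries 1 and 2 gave 4. For dCBP-1 against the combination (4) TMM gave 7, median-ratio scaling 8, edgeR 8 and DESeq2 13. For dCBP-1 against GNE-781 (8) DESeq2 gave 14, and for GNE-781 against A-485 (0) only the groups compared gave 1 and DESeq2 4. With 1 library left out, calls against DMSO numbered 0 to 4 (A-485), 8 to 21 (GNE-781), 12 to 27 (combination) and 25 to 30 (dCBP-1). Those of dCBP-1 numbered 2 to 5 against the combination and 4 to 7 against GNE-781, and GNE-781 against A-485 gave 0. Where an arm kept 1 or 2 libraries, they were assumed to vary like the other groups. The cause of these moves was not tested, other than fewer libraries in the fits that leave some out.

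The replicate block gave 0, 12, 17 and 28 calls for A-485, GNE-781, the combination and dCBP-1, and 4, 8 and 0 in the other comparisons. Same-numbered libraries did not deviate together (median r of -0.09 over 30 pairs, 7 above 0.1, against 0.07 over 60 pairs of unlike number), so the numbers were not taken as a pairing. The lowest read count of a gene in a library was 23 (KDM6B), where counting error adds to the spread, and 3 libraries per group limit the size of change that can be called. The share of each was not tested.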
